A study of Mus musculus with 8 samples.

Results

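The genes described here are the 26 mouse genes that build cholesterol from acetyl-CoA or control that synthesis through the transcription factor SREBP2. They were chosen by name and not by their values. All 26 are among the 21049 gene symbols of the expression table. By role, 6 regulate SREBP2 (Srebf2, Scap, Insig1, Insig2, Mbtps1 and Mbtps2), 8 carry out or branch from the early mevalonate steps, 11 carry out the late sterol steps and 1, Stard4, carries sterols between membranes.

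RNA was sequenced from 8 libraries of a study of alcohol-related liver disease whose title names H19 (a long non-coding RNA), miR-22 and SIRT1. The control group has 4 wild-type samples given saline and the alcohol group has 4 wild-type samples given alcohol. Per the design text the animals were C57BL/6, an inbred strain, and the alcohol was fed, while the sources used here do not give the dose, the duration or the age. The labels name liver as the tissue and also AML12, a mouse hepatocyte line, for every sample, but each library held transcripts of Kupffer, endothelial and red cells, which a hepatocyte line alone does not have. All samples carry 1 batch label. The sources do not say whether samples are separate animals. The p-values therefore measure only how far these samples spread, which may be technical.

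Cells build cholesterol in the endoplasmic reticulum. SCAP escorts the membrane-bound precursor of SREBP2 to the Golgi, where the proteases encoded by Mbtps1 and Mbtps2 release the active factor, which then raises transcription of the synthesis enzymes. When sterols are plentiful, INSIG1 or INSIG2 holds SCAP back in the endoplasmic reticulum. INSIG1 is itself a target of SREBP2, and the liver makes a separate INSIG2 transcript that insulin lowers.

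Expression is given in FPKM, fragments scaled to gene length and library total, so levels can be set side by side between genes per length. Library totals recovered from the values were 33872595 to 34789814 reads in controls and 37132631 to 38407511 in alcohol samples; all alcohol totals exceeded all control totals. Each member drew between 67 reads (Mvd) and 13534 reads (Insig2) in a library. A log2 change below is the mean of log2(FPKM + 1) in alcohol minus that in controls, which understates the change of low genes, and an adjusted p is from limma over 9228 genes with Benjamini-Hochberg adjustment at 0.05. All 26 members passed the expression minimum of a mean of 1 FPKM over the 8 samples. Levels are means ± SD over n = 4 samples a group. Alcohol replicates 2 and 4 resembled each other most (chi-square of their reads 8.05 per gene, against 41.8 or more for the rest), but differed beyond counting noise and were counted separately. Control replicate 1 differed from the other controls by 133 to 167 per gene over all genes, against 41.8 to 65.5 among those others.

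Promoter sequences were read for the members whose levels the results turn on, together with Scap as a regulator that rose. They are from RefSeq (GRCm38.p6), which gave 28 windows, from 250 bases before to 50 after a start site, for 22 of the 26 members. Fdps, Fdft1, Sqle and Stard4 were not in that table. Motifs were searched for on both strands: the sterol regulatory element through which SREBP2 binds (in a short form, TCACNCCAC, and in a longer one that has A and T before those letters and so contains it), the NF-Y box CCAAT and the Sp1 box GGGCGG, whose factors work beside SREBP2, and the E-box CACGTG. No printed matches overlap one another. The stretches are shown 5′ to 3′ on the gene's own strand, cut to the bases before any annotated exon, with matches in capitals.

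Hmgcs1, chr13:119690101-119690350, plus strand: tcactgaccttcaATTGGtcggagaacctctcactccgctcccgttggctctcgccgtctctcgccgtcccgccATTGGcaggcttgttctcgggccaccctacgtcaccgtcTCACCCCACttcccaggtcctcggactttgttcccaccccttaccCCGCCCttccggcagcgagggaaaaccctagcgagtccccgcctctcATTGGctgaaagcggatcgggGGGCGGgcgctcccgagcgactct
Hsd17b7, chr1:169969242-169969408, minus strand: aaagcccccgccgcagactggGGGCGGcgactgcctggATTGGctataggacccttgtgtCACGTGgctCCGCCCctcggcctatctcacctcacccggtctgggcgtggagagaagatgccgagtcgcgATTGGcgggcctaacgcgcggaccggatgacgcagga
Nsdhl, chrX:72918412-72918520, plus strand: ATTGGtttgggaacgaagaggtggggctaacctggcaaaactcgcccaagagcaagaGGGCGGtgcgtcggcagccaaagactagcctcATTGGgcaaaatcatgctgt
Insig1, chr5:28071162-28071362, plus strand: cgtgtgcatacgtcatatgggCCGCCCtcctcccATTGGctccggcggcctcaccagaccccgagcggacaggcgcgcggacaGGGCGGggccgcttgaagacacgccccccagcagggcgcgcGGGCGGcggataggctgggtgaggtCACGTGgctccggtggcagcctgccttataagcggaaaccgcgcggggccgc
Insig2, first start, chr1:121332590-121332839, minus strand: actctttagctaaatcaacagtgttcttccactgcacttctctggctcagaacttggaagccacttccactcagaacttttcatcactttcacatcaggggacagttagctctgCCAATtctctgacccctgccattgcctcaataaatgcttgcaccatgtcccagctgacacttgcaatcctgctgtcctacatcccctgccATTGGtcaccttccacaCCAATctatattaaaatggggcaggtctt
Insig2, second start, chr1:121328025-121328091, minus strand: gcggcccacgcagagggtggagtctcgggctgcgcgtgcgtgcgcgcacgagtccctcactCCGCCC
Scap, chr9:110333038-110333287, plus strand: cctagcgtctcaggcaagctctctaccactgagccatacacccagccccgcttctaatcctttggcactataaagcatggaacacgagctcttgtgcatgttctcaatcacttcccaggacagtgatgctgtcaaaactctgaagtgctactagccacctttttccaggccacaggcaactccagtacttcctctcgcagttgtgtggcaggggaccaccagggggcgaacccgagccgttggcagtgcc

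Hmgcs1 was the only member whose window held an exact match to the shorter sterol regulatory element, and none matched the longer form. Sites that differ from these letters were not searched for, so a window without a match may still hold one. The shorter form was in 1 of the members' 28 windows (3.57%) against 1.24% of all 32851 promoter windows of the same length in the table. The longer form was in 0.234% of all windows. The NF-Y box was in 64.3% of the members' windows against 37.4% of all, the Sp1 box in 78.6% against 35.7% and the E-box in 21.4% against 7.15%. The printed Nsdhl stretch held NF-Y boxes close to both of its ends, and the Scap stretch held no match, although the Scap windows searched, which reach past the printed bases, held an Sp1 box and an E-box. The first Insig2 start lay 4565 bases upstream of the second, and its printed stretch held NF-Y boxes and no Sp1 box, whereas that of the second held an Sp1 box beside its start. A match is a description of letters and not a bound site, and the expression table holds 1 value per gene, so the Insig2 starts were not measured apart.

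Insig1 and Insig2 moved in opposite directions, Scap and both SREBP2 proteases rose, and the transcript of SREBP2 itself did not pass the test. Among the synthesis enzymes, those that fell included Nsdhl, Msmo1, Tm7sf2 and Hsd17b7 of the late steps and Acat2 and Hmgcs1 of the early ones, and Stard4 fell with them. In all, 5 of the 26 members (19.2%) rose and 10 (38.5%) fell, where 57.2% of all tested genes passed in either direction, 44.2% as higher and 13.0% as lower. Every alcohol sample was above every control for 5 members, where 39.5% of all tested genes had such a gap, and below every control for 9 members (34.6%), where 10.7% did. The median log2 change was -0.23 over the members and 0.24 over all tested genes. Regulators had 4 higher and 1 lower of 6, early steps 1 higher and 3 lower of 8, and late steps 0 higher and 5 lower of 11.

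**Figure D1:**
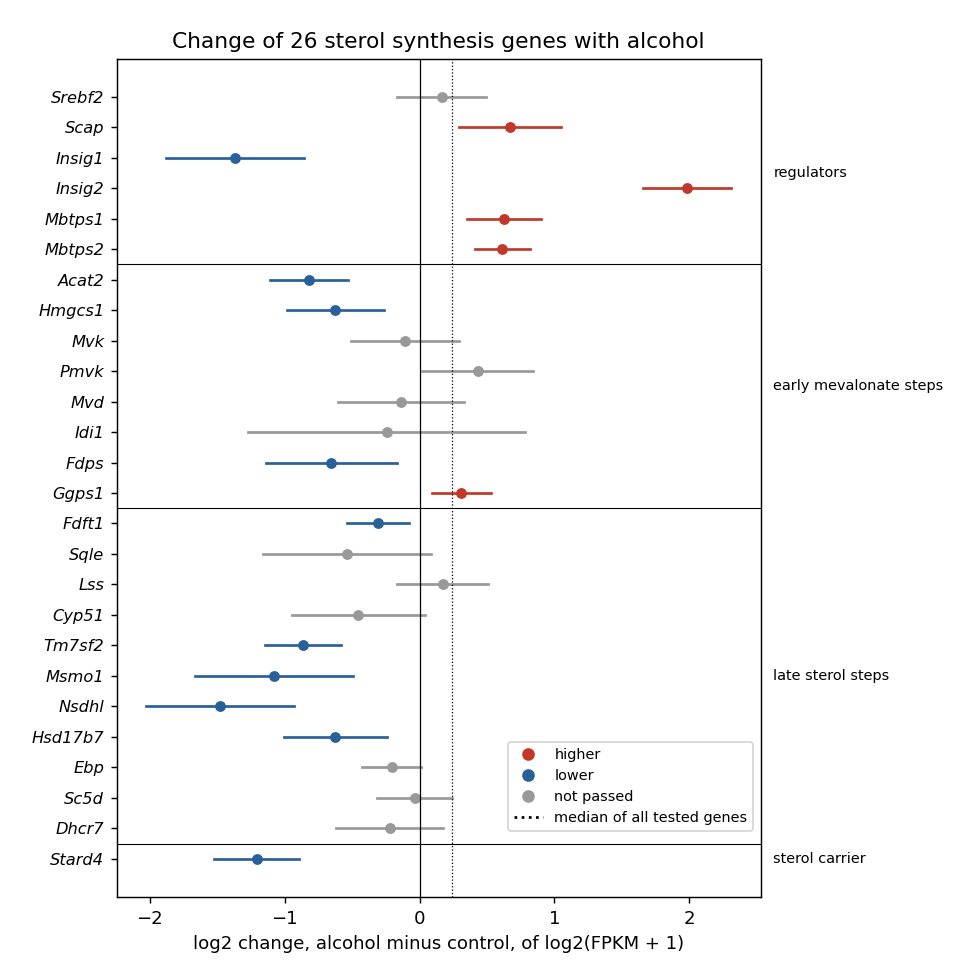
Log2 change (alcohol minus control, of log2(FPKM + 1)) of each of the 26 members, by role, with its 95% confidence interval from limma, coloured by call at an adjusted p of 0.05. The dotted line is the median of all tested genes (0.24). Insig2 lies farthest to the right (1.98), Nsdhl (-1.48) and Insig1 (-1.37) farthest to the left, and no late step is coloured as higher.

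Counts of calls depended on how the libraries were scaled. FPKM divides each library by its own total, and across all genes the median log2 change was -0.03 with median-of-ratios scaling, -0.001 with quantile normalization, 0.40 on the TPM scale and 0.21 when libraries were scaled to the genes outside the 100 most abundant ones. Over all tested genes 4080 rose and 1203 fell as deposited, against 2170 and 2616 with median-of-ratios scaling, 2270 and 2275 with quantile normalization, and 4867 and 814 on the TPM scale. Over these scalings 3 to 6 members rose and 8 to 15 fell: 3 to 4 regulators rose and 1 fell, 0 to 2 early steps rose and 2 to 4 fell, and 0 late steps rose and 4 to 10 fell. Relative to the median of all tested genes, 20 of 26 members lay below it as deposited, and so did 11 of 11 late steps, 6 of 8 early steps and 2 of 6 regulators. These counts were equal under each of the 5 scalings, but all except quantile normalization multiply a library by 1 factor, which leaves such places nearly fixed by construction.

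**Figure D2:**
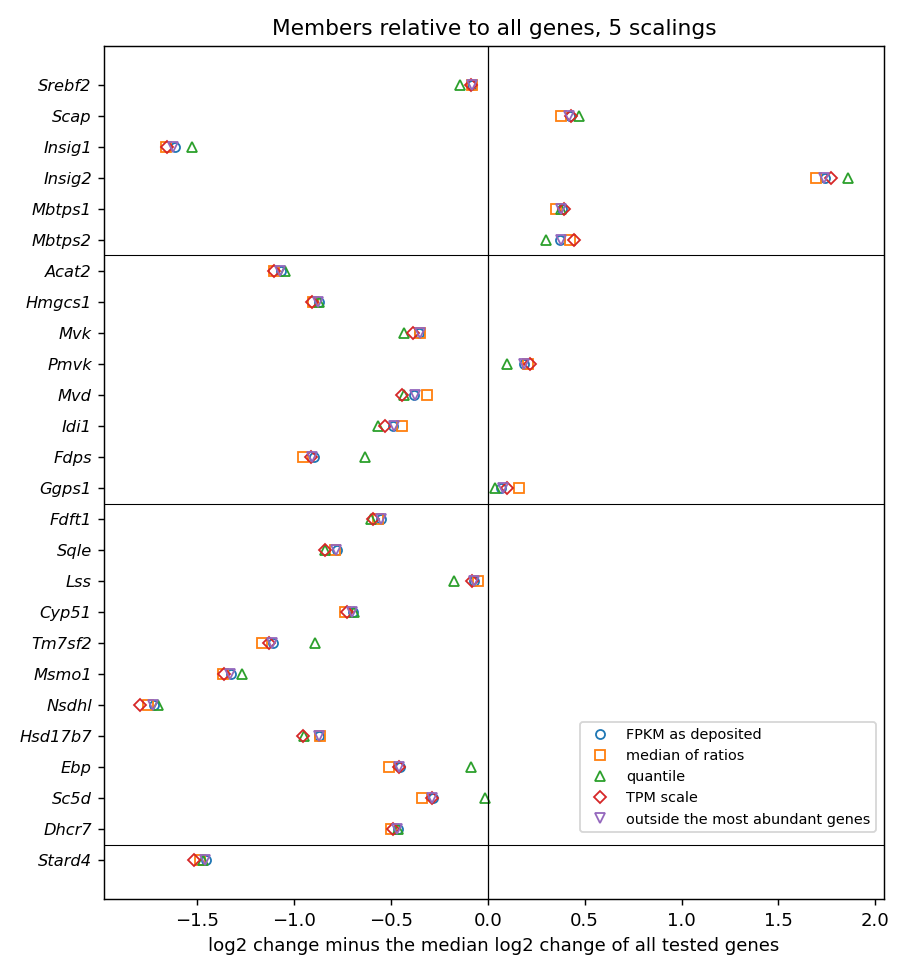
Log2 change of each member minus the median log2 change of all tested genes, with 1 symbol for each of 5 scalings of the libraries; horizontal lines part regulators, early steps, late steps and the carrier. Late steps all lie left of 0 (Lss and Sc5d nearest to it), and Insig2 lies between 1.69 and 1.86.

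Insig2, the sterol-sensing anchor with its own liver transcript, had the largest increase of the 26. Its level was 11.5, 9.24, 15.2 and 9.23 FPKM in control replicates 1 to 4 and 49.4, 45.2, 50.2 and 42.5 FPKM in alcohol replicates 1 to 4. The lowest alcohol sample was well above the highest control. Means were 11.3 ± 2.81 and 46.8 ± 3.65 FPKM (log2 change 1.98 ± 0.15 SE, limma adjusted p = 3.71e-06).

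Insig1, the anchor whose own transcription SREBP2 drives, fell. It stood at 48.2, 49.5, 29.4 and 31.6 FPKM in controls and at 9.09, 18.4, 13.96 and 17.8 FPKM in alcohol samples. Control replicates 1 and 2 were the highest, alcohol replicate 1 the lowest, and the groups did not overlap. The log2 change was -1.37 ± 0.23 SE (limma adjusted p = 0.000635), and relative to the median of all genes it was -1.66 to -1.53 over the 5 scalings.

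As a description chosen after these values were seen, the summed level of both anchors was 51.0 ± 9.66 FPKM in controls against 61.7 ± 2.72 FPKM in alcohol samples, with 2 controls (59.7 and 58.7 FPKM) inside the alcohol range of 58.5 to 64.2 FPKM. Insig1 made up 80.7%, 84.3%, 66.0% and 77.4% of that sum in controls and 15.5%, 29.0%, 21.7% and 29.6% in alcohol samples. The share thus went from 77.1% ± 7.93 to 24.0% ± 6.64. It depends on gene length: the length behind the deposited Insig2 values, recovered as 7015 bases, is longer than the 3473 exon bases of GENCODE M21, and with GENCODE lengths for both genes the share was 59.4% ± 10.4 and 11.9% ± 3.74. The within-sample log2 ratio of Insig1 to Insig2 was 1.72 ± 0.59 in controls and -1.64 ± 0.52 with alcohol, a difference of -3.35.

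Scap, the escort that carries SREBP2 to the Golgi, stood at 22.1, 13.9, 14.1 and 11.3 FPKM in controls and at 24.0, 23.0, 27.6 and 22.7 FPKM with alcohol. Control replicate 1 came close to the lowest alcohol sample, and the groups did not overlap. Scap rose by a log2 change of 0.67 ± 0.17 SE (limma adjusted p = 0.00699), but with median-of-ratios scaling it was 0.35 and did not pass (adjusted p = 0.0797). In GENCODE M21, 13.2% of its exon bases lie under 5830462I19Rik on the other strand, and whether the counting used strand is not given in the sources used here.

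Mbtps1, which encodes the site-1 protease, rose from 9.36 ± 1.61 to 14.9 ± 1.58 FPKM (log2 change 0.63 ± 0.12 SE, limma adjusted p = 0.00162). Its controls spanned 8.09 to 11.7 FPKM and its alcohol samples 13.3 to 16.8 FPKM. Mbtps2, which encodes the site-2 protease, stood lower per length, at 1.599, 1.37, 1.195 and 1.48 FPKM in controls and at 2.74, 2.56, 2.98 and 2.48 FPKM with alcohol. Neither protease had overlapping groups. Mbtps2 rose by 0.61 ± 0.09 SE (limma adjusted p = 0.000308), and 28.4% of its exon bases also belong to Yy2 on the same strand. The log2 ratio of Mbtps1 to Mbtps2 within a sample was 2.09 ± 0.16 in controls and 2.11 ± 0.06 with alcohol. The added 1 FPKM weighs on the low Mbtps2 values, and with a smaller pseudocount this ratio was lower with alcohol.

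Srebf2, the gene of SREBP2, stood at 6.33, 4.38, 3.69 and 3.68 FPKM in controls and at 5.77, 4.97, 5.38 and 4.30 FPKM with alcohol. Control replicate 1 was the highest of all 8 samples, and the groups overlapped. Its log2 change was 0.16 ± 0.15 SE with a 95% interval of -0.17 to 0.50 (limma adjusted p = 0.365). Without control replicate 1 it was 0.31 and passed (adjusted p = 0.0329), and it changed sign with median-of-ratios scaling (-0.11) and quantile normalization (-0.15). The log2 ratio of Srebf2 to Scap was -1.55 ± 0.14 in controls and -2.05 ± 0.13 with alcohol.

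**Figure D3:**
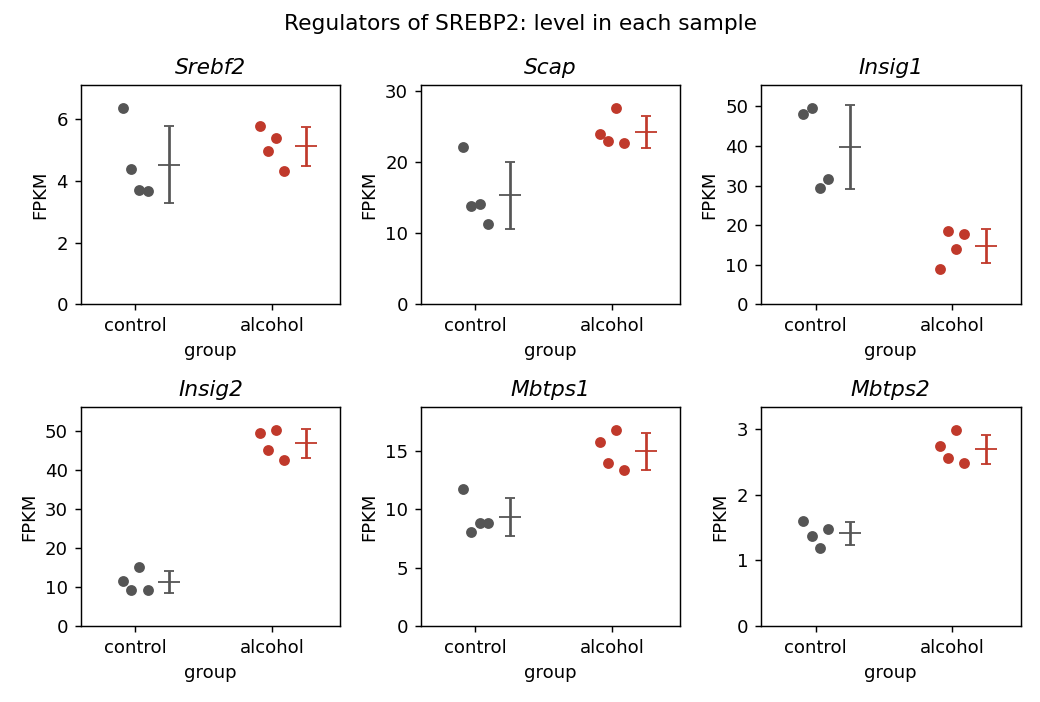
FPKM of the 6 regulators in each of 4 control and 4 alcohol samples (points), with the group mean and SD (bars beside the points) and y axes that start at 0. Insig1 and Insig2 separate the groups in opposite directions, Scap, Mbtps1 and Mbtps2 are above all controls in every alcohol sample, and Srebf2 overlaps.

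Some cell type markers moved with the group. The counts below stand beside 44.2% of all tested genes that rose and 13.0% that fell, so no count is read alone as a result. All 6 endothelial markers rose (5 to 6 over the scalings), with a summed level of 16.05 to 25.6 FPKM in controls and 65.2 to 80.7 FPKM with alcohol, and 3 of 6 stellate cell markers rose and 1 fell (39.4 to 70.3 against 98.4 to 141.9 FPKM). Of the periportal hepatocyte markers, 1 rose and 4 fell of 8, with 0 to 1 and 3 to 7 over the scalings (2034 to 2436 against 976 to 1517 FPKM), and of the pericentral ones tested 4 rose and 2 fell of 7, with 2 to 4 and 1 to 3 over the scalings (6424 to 8300 against 4825 to 6218 FPKM). General hepatocyte markers had 2 higher and 2 lower of 6 (53287 to 60569 against 48990 to 58793 FPKM), and the 4 Kupffer cell, 2 lymphocyte or neutrophil and 1 cholangiocyte markers tested did not pass. Of 5 red cell markers 1 fell (1 to 3 over the scalings). Ly6g, a neutrophil marker, was the only one listed at 0 in any library. The part of these shifts in the members' changes was not tested, and in bulk RNA fewer cells of a type and less RNA per cell cannot be told apart.

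Of the early steps, Acat2 and Hmgcs1 fell. Acat2, which joins acetyl-CoA units, went from 18.98, 21.2, 21.6 and 14.4 FPKM in controls to 9.69, 11.2, 10.5 and 9.55 FPKM with alcohol. The groups did not overlap (log2 change -0.82 ± 0.13 SE, limma adjusted p = 0.000434). Of the 50-base stretches of its exons, 45.9% also occur in other genes, among them its near copy Acat3, so reads may be split between them.

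Hmgcs1, which makes HMG-CoA and has the sterol element shown above, stood at 15.1, 21.1, 13.9 and 10.9 FPKM in controls. Alcohol samples had 9.09, 9.36, 8.51 and 10.2 FPKM. Control replicate 2 was the highest and control replicate 4 lay just above the alcohol samples, with no overlap. The log2 change was -0.63 ± 0.16 SE (limma adjusted p = 0.00749).

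Fdps, which makes farnesyl diphosphate and was the most abundant early step per length, stood at 101, 68.1, 76.6 and 49.99 FPKM in controls and at 57.3, 37.7, 54.6 and 35.5 FPKM with alcohol. Control replicate 4 lay below 2 alcohol samples, so the groups overlapped. It fell by 0.65 ± 0.22 SE on the log2 scale (limma adjusted p = 0.0257). The call was lost without control replicate 1 (adjusted p = 0.0645) or 3 (0.0623), without alcohol replicate 2 (0.0667) or 4 (0.0708), and on the TPM scale (0.0949). It was also lost among all genes without the minimum (limma adjusted p = 0.0797) and with alcohol replicates 2 and 4 averaged as 1 sample (0.0678). Of its 50-base stretches, 86.4% also occur in other genes, most of all Gm43738 and other predicted genes, so its level is uncertain.

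Ggps1, which leads away from sterols to geranylgeranyl diphosphate for protein prenylation, was the only early step that rose as deposited, from 0.942 ± 0.174 to 1.41 ± 0.198 FPKM. Its control mean is below the minimum of 1 FPKM, so it was tested only through its level with alcohol, and its adjusted p among all genes without that minimum was 0.0449. Its log2 change of 0.31 ± 0.10 SE (limma adjusted p = 0.0209) did not pass without control replicate 2 (adjusted p = 0.0603) or 3 (0.0637), nor with median-of-ratios scaling (0.277) or quantile normalization (0.753). The kinases Mvk and Pmvk and the decarboxylase Mvd, which turn mevalonate into isopentenyl diphosphate, did not pass. Mvk was at 4.73 ± 1.31 and 4.28 ± 1.00 FPKM, Mvd at 2.05 ± 1.03 and 1.66 ± 0.294 FPKM.

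Pmvk was at 2.86 ± 0.975 FPKM in controls against 4.09 ± 0.699 FPKM in alcohol samples (log2 change 0.43 ± 0.19 SE, limma adjusted p = 0.0693). Control replicate 4, at 1.49 FPKM, was the lowest sample, and the groups overlapped. The change passed without control replicate 1 (0.54, adjusted p = 0.033) and on the TPM scale (0.61, 0.0391).

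Idi1, the isomerase that makes dimethylallyl diphosphate, varied most among controls. Its level was 12.1, 2.41, 1.88 and 1.24 FPKM in controls and 4.49, 1.67, 2.25 and 2.07 FPKM with alcohol. Replicate 1 was the highest of each group. The log2 change was -0.24 ± 0.47 SE (limma adjusted p = 0.671), and without control replicate 1 it was 0.31. The log2 ratio of Idi1 to Hmgcs1 was -1.94 ± 1.11 in controls and -1.56 ± 0.49 with alcohol.

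The late steps begin with squalene. Fdft1, which makes it, went from 7.29 ± 0.729 to 5.70 ± 0.555 FPKM, with controls at 6.36 to 8.11 FPKM just above alcohol samples at 4.95 to 6.28 FPKM. It fell by 0.31 ± 0.10 SE on the log2 scale (limma adjusted p = 0.0265). That call was lost without control replicate 2 (adjusted p = 0.0769) or 3 (0.066), without alcohol replicate 1 (0.0702) or 2 (0.0504), and on the TPM scale (0.176). Ctsb overlaps 18.3% of its exon bases on the other strand.

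Sqle, the squalene epoxidase, stood at 11.4, 9.48, 5.73 and 4.35 FPKM in controls and at 8.10, 3.95, 3.59 and 4.14 FPKM with alcohol. Alcohol replicate 1 lay among the controls and apart from the other alcohol samples. The log2 change of -0.54 ± 0.28 SE did not pass (limma adjusted p = 0.124), but it passed without alcohol replicate 1 (-0.76, adjusted p = 0.0287), without control replicate 4 (-0.75, 0.0412), with median-of-ratios scaling (-0.82, 0.0243) and with quantile normalization (-0.84, 0.0234). Lss, which folds epoxysqualene into lanosterol, was at 3.02 ± 0.669 and 3.54 ± 0.795 FPKM and did not pass (limma adjusted p = 0.358).

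Cyp51, the lanosterol demethylase, stood at 27.6, 15.0, 14.4 and 11.1 FPKM in controls and at 14.1, 10.5, 10.6 and 11.1 FPKM with alcohol. Control replicate 1 was the highest and the groups overlapped. The log2 change was -0.45 ± 0.22 SE (limma adjusted p = 0.104), and it passed without control replicate 4 (-0.62, adjusted p = 0.0345), with median-of-ratios scaling (-0.77, 0.00974) and with quantile normalization (-0.69, 0.0199).

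Tm7sf2, a reductase of the sterol C14 double bond, had 65.8, 63.5, 71.7 and 48.3 FPKM in controls and 36.0, 33.4, 33.7 and 30.7 FPKM with alcohol. All 4 alcohol samples lay within a few FPKM of each other and below every control. It fell by 0.86 ± 0.13 SE on the log2 scale (limma adjusted p = 0.000281), and Vps51 on the same strand shares 12.1% of its exon bases. Lbr, a nuclear membrane protein with the same reductase activity, moved the other way, from 1.81 ± 0.416 to 3.36 ± 0.267 FPKM (log2 change 0.64 ± 0.11 SE, limma adjusted p = 0.000839). The log2 ratio of Tm7sf2 to Lbr went from 4.49 ± 0.32 to 2.98 ± 0.15.

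The enzymes that remove the C4 methyl groups, Msmo1, Nsdhl and Hsd17b7, all fell. Msmo1, the oxidase of this step, had 39.9, 41.2, 19.4 and 17.0 FPKM in controls and 14.1, 13.8, 10.4 and 11.4 FPKM with alcohol. The controls fell into a higher pair (replicates 1 and 2) and a lower pair, both above all alcohol samples (log2 change -1.08 ± 0.27 SE, limma adjusted p = 0.00567). Nsdhl, the dehydrogenase, had 27.6, 22.9, 22.6 and 14.7 FPKM in controls and 11.5, 5.403, 8.24 and 4.71 FPKM with alcohol. The groups did not overlap, and its decrease was the largest of the 26 (log2 change -1.48 ± 0.25 SE, limma adjusted p = 0.000618). Hsd17b7, the ketoreductase, went from 5.71 ± 1.63 to 3.31 ± 0.737 FPKM, with controls at 4.26 to 8.05 FPKM and alcohol samples at 2.65 to 3.98 FPKM (log2 change -0.63 ± 0.17 SE, limma adjusted p = 0.0104). Relative to the median of all genes, the log2 changes over the 5 scalings were -1.36 to -1.27 for Msmo1, -1.79 to -1.70 for Nsdhl and -0.96 to -0.86 for Hsd17b7.

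The last 3 enzymes did not pass. Ebp, the sterol isomerase and the most abundant member per length, was at 124 ± 6.17 and 107 ± 7.5 FPKM (log2 change -0.21 ± 0.10 SE, limma adjusted p = 0.0958). Sc5d, the lathosterol desaturase, was at 60.5 ± 9.49 and 58.5 ± 3.36 FPKM (95% interval of the log2 change -0.32 to 0.24). Dhcr7, which makes cholesterol from its last precursor, was at 12.4 ± 3.24 and 10.4 ± 1.93 FPKM (95% interval -0.62 to 0.17). With median-of-ratios scaling all 3 passed as lower (limma adjusted p = 0.00221 for Ebp, 0.0219 for Sc5d and 0.021 for Dhcr7), so that 10 of the 11 late steps fell. On the TPM scale 4 of 11 did.

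Stard4, a cytosolic carrier that moves cholesterol between membranes, stood at 23.5, 17.5, 13.8 and 15.4 FPKM in controls and at 6.92, 6.68, 6.60 and 7.31 FPKM with alcohol. The alcohol samples were nearly equal, and each was below every control. It fell by 1.21 ± 0.14 SE on the log2 scale (limma adjusted p = 7.29e-05).

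**Figure D4:**
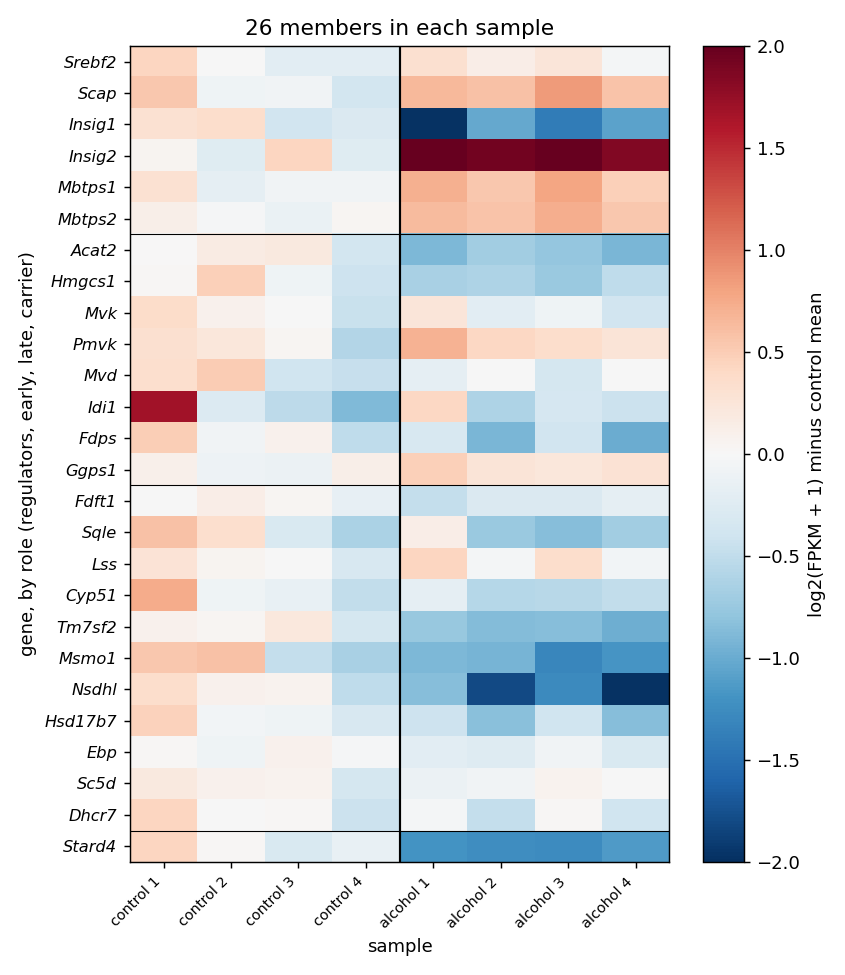
Log2(FPKM + 1) of each of the 26 members minus its control mean in each of the 8 samples, on a colour scale from -2 to 2; black lines part the groups and the roles. Within controls, replicate 1 is mostly red and replicate 4 mostly blue, and among alcohol samples Insig2 is dark red and Insig1, Nsdhl, Msmo1 and Stard4 are blue.

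Samples of 1 group differed in the same direction across many members. Over the 19 synthesis enzymes, control replicate 1 was the highest control for 11 and control replicate 4 the lowest for 17. Among alcohol samples, replicate 1 was the highest for 11 and replicate 4 the lowest for 9. Such an order was not counted over all genes, so it is not read as particular to these enzymes. The median of log2(FPKM + 1) minus the control mean over the 11 late steps was 0.35, 0.06, 0.03 and -0.35 in controls and -0.21, -0.58, -0.40 and -0.50 with alcohol, so control replicate 4 lay inside the alcohol range. Over the 8 early steps it was 0.33, 0.13, -0.05 and -0.45 against 0.03, -0.41, -0.35 and -0.40, which overlapped too. The regulators' median, at 0.31, -0.06, -0.10 and -0.23 against 0.65, 0.55, 0.76 and 0.51, did not overlap. Without control replicate 4, 5 members rose and 12 fell; without control replicate 1, 7 rose and 9 fell.

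Correlation across the 8 samples was computed after removing each group's mean, against Srebf2 for the other 25 members and against Hmgcs1 for the remaining 24. None of the 49 relations passed Benjamini-Hochberg adjustment (smallest adjusted p = 0.128 in an exact permutation test over rearrangements within groups). At an unadjusted p of 0.05, 10 of 25 passed with Srebf2 and 1 of 24 with Hmgcs1 by Pearson's r, and 9 and 1 by Spearman's rho. The highest with Srebf2 were Idi1 (r = 0.93, permutation p = 0.0087; rho = 0.93, p = 0.0104) and Hsd17b7 (r = 0.91, permutation p = 0.0052; rho = 0.90, p = 0.0104). Without control replicates 1 and 4, the farthest from the median of Srebf2, r was 0.69 for Idi1 and 0.78 for Hsd17b7. Insig1 (r = 0.18), Insig2 (0.10) and Hmgcs1 (0.19) were among those that followed Srebf2 least.

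The median r with Srebf2 was 0.71, positive for 24 of 25 members, and 0.54 without those samples. With Hmgcs1 the median was 0.28, positive for 19 of 24, and 0.16 without control replicates 1 and 2. The highest with Hmgcs1 was Mvd (r = 0.86, permutation p = 0.0035; rho = 0.90, p = 0.0208; r = 0.64 without those controls). Between pairs of members, the median r was 0.58 among late steps, 0.55 between early and late steps, 0.47 among early steps and 0.34 among regulators, and 0.06 over all pairs of tested genes. Among the 19 enzymes, Fdft1 had a negative r with 10 others, Ggps1 with 8 and Ebp with 6. All these points share the same 8 libraries and their scaling: with median-of-ratios scaling the median r was 0.63 with Srebf2 and 0.10 with Hmgcs1.

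**Figure D5:**
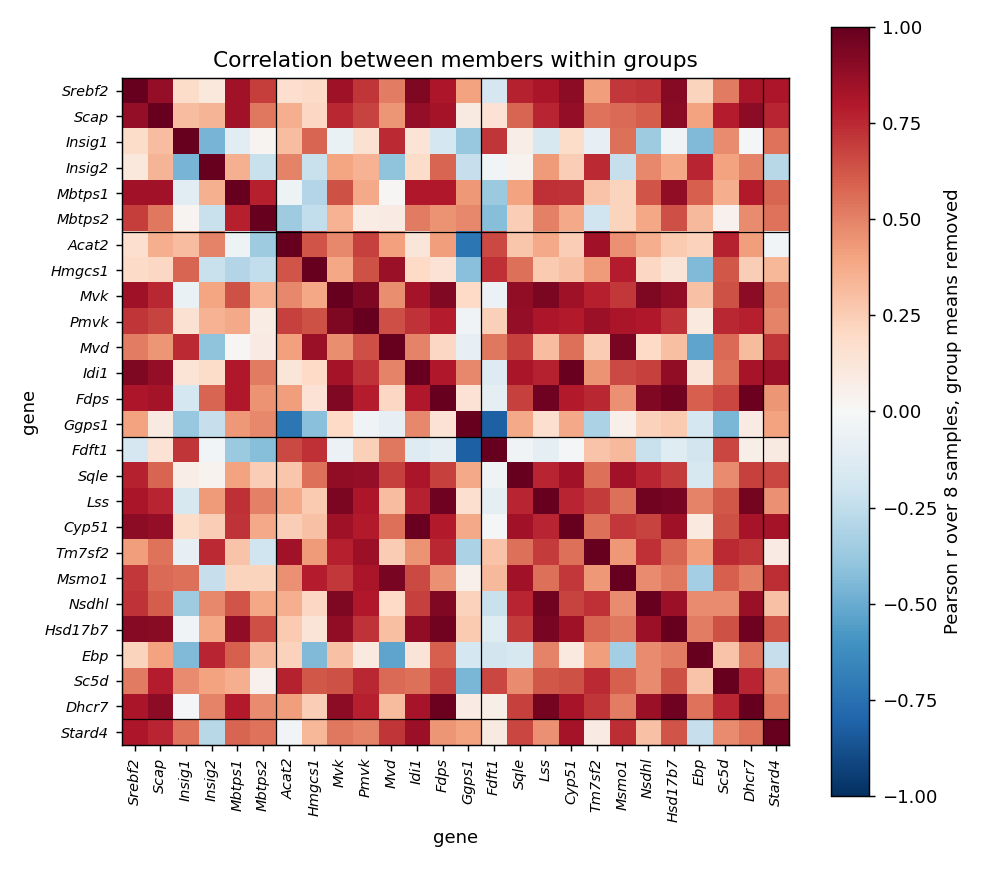
Pearson's r between each pair of the 26 members over 8 samples after removal of the group means, from -1 (blue) to 1 (red), with black lines between roles. Most squares among early and late steps are red (median r 0.55 between them), and among the enzymes the rows of Ggps1, Fdft1 and Ebp hold most of the blue ones.

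Ratios within a library, taken as differences of log2(FPKM + 1), would not depend on its scaling but for the pseudocount. There were 6, compared by an exact 2-sided permutation test over 70 assignments, which cannot go below p = 0.0286. Insig1 over Insig2 (-3.35), Tm7sf2 over Lbr (-1.51) and Srebf2 over Scap (-0.50) each differed between all alcohol and all control samples and reached that smallest p. Adjusted over the 6 ratios it was 0.0571, which does not pass. Mbtps1 over Mbtps2 (0.01, exact p = 0.914), Idi1 over Hmgcs1 (0.38, exact p = 0.571) and Sqle over Fdft1 (-0.23, exact p = 0.543) overlapped between the groups.

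Genes around the pathway moved in both directions, and their counts below stand beside 44.2% of all tested genes that rose and 13.0% that fell, so nothing particular to a list is read from them. Of 12 tested genes that are other SREBP2 targets or take up cholesterol, 4 rose and 2 fell (2 to 5 and 0 to 5 over the scalings). Npc1, which exports cholesterol from lysosomes, rose from 21.99 ± 3.29 to 58.1 ± 7.42 FPKM (limma adjusted p = 2.04e-05).

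Of 15 tested genes, which were Srebf1 and genes that sense sterols or degrade the pathway's proteins, 7 rose and 1 fell (5 to 7 and 1 to 5 over the scalings). The one that fell was Srebf1, which encodes the related factor SREBP1, from 35.1 ± 7.59 to 11.5 ± 1.31 FPKM (limma adjusted p = 2.14e-05). Erlin1, which holds the precursor complex in the endoplasmic reticulum, rose from 12.6 ± 2.08 to 33.0 ± 5.57 FPKM, and the ubiquitin ligase gene Rnf139 from 6.14 ± 0.615 to 11.9 ± 0.349 FPKM. Of 4 electron donors of the sterol enzymes, Por rose from 187 ± 38.8 to 357 ± 94.2 FPKM and Cyb5r3 fell from 116 ± 17.5 to 76.9 ± 0.389 FPKM.

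Of 11 tested genes that use farnesyl diphosphate for other products, 6 rose and 0 fell as deposited, and 0 to 8 rose and 0 to 2 fell over the other scalings. They included Nus1 of dolichol synthesis (10.4 ± 0.870 to 15.0 ± 0.357 FPKM), the prenyltransferase subunit gene Rabggtb (21.8 ± 2.70 to 30.6 ± 3.76 FPKM) and the protease gene Zmpste24 (11.96 ± 3.15 to 18.6 ± 2.56 FPKM), and none of the 3 passed with median-of-ratios scaling. Of 13 tested genes of the oxysterol receptor LXR, efflux and esterification, 4 rose and 3 fell (2 to 6 and 2 to 6 over the scalings). Among them Mylip, a ubiquitin ligase gene that LXR drives, rose from 0.811 ± 0.118 to 3.60 ± 0.257 FPKM (its control mean is below the minimum), Soat2, which esterifies cholesterol, rose from 12.6 ± 1.03 to 39.9 ± 10.1 FPKM, and the oxysterol hydroxylase gene Cyp7b1 fell from 153 ± 83.9 to 25.97 ± 3.32 FPKM. Of 9 other sterol carriers, 3 rose and 1 fell (1 to 4 and 1 to 2 over the scalings): Gramd1c rose from 5.10 ± 0.697 to 16.9 ± 0.914 FPKM and Osbpl2 from 4.79 ± 0.714 to 7.83 ± 1.38 FPKM (not past the threshold with median-of-ratios scaling, adjusted p = 0.0535), while Scp2 fell from 1080 ± 129 to 659 ± 53.9 FPKM.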

How the data were processed

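The deposited values are FPKM, 1 column per sample for 21049 gene symbols. Builds GRCm38 and mm10 are named per the submitters' processing notes. Which aligner, counter, annotation or strand setting was used is not given in the sources used here. Per the labels' protocols, column-purified total RNA went into SMARTER mRNA libraries. The authors' FPKM divide by library total and gene length. Whole reads were recovered for 21048 symbols to a tolerance of 1e-05 reads and served for depth and 1 alternative (voom, which called 4088 genes higher and 1188 lower).

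Groups and replicate numbers came from the labels. limma 3.58.1 (R 4.3.3) was fitted to log2(FPKM + 1) with a group term and trended moderation, over the 9228 genes whose mean reached 1 FPKM. Tests are 2-sided with Benjamini-Hochberg adjustment at 0.05. Ratios and correlations used exact permutation (SciPy 1.17.1). The code was tested on simulated data. The members, gene lists and tests were chosen with earlier results of these data known. By rule, the 26 members, Lbr and up to 3 genes of each pathway list with the smallest p are named; some of these are not reported here. Alternatives covered the pseudocount, the minimum, 4 scalings, voom, a replicate block and each sample left out. Whether same-numbered samples are paired was not settled. Exon overlaps and shared 50-base stretches are from GENCODE M21.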

Additional observations from a re-analysis of the deposited data

Results flagged for a closer look

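In 52 sets of 4 samples (26 members in each group), 2 had 1 sample far from the other 3 by Dixon's test at the 95% level, where chance gives about 1 in 20. Idi1 among controls had replicate 1 at 12.1 FPKM against 1.24 to 2.41 FPKM in the others. Sqle among alcohol samples had replicate 1 at 8.10 FPKM against 3.59 to 4.14 FPKM in the others.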

How the results depend on the processing

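Of the members' log2 changes under the alternatives, 414 kept their direction and side of the threshold, 17 (4 members) lost a call, 18 (8 members) gained one and 10 (6 members) changed sign. The sign changes were Srebf2 (-0.11 with median-of-ratios scaling, -0.15 with quantile normalization), Lss (-0.084 and -0.17), Mvk (0.013 on the TPM scale, 0.016 without control replicate 1), Sc5d (0.11 and 0.028), Idi1 (0.31 without control replicate 1) and Mvd (0.034 without control replicate 2); none of these 6 passes as deposited. Leaving out 1 sample at a time, Mvk ranged from -0.26 to 0.016, Mvd from -0.29 to 0.034, Idi1 from -0.54 to 0.31 and Sc5d from -0.15 to 0.028. The cause was not tested. With median-of-ratios scaling 3 members rose, and with a mean of at least 5 FPKM (fewer genes tested) 3 of 17. The regulators' median log2 change was 0.33, 0.34 and 0.81 with median-of-ratios, quantile and TPM scaling. The early steps' was -0.50 with quantile normalization and -0.65 at the higher minimum, and the late steps' -0.77 and -0.69 with median-of-ratios and quantile scaling. The difference between groups in the log2 ratio of Mbtps1 to Mbtps2 became -0.21 with a pseudocount of 0.1 FPKM and -0.052 on the TPM scale.

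Leaving out 1 sample at a time gave 4 to 7 members higher and 8 to 12 lower, and medians of -0.41 to -0.003 for early steps, -0.62 to -0.31 for late steps and 0.58 to 0.69 for regulators. The differences between groups in the log2 ratios ranged from -3.62 to -3.13 (Insig1 over Insig2), -1.61 to -1.37 (Tm7sf2 over Lbr), -0.56 to -0.45 (Srebf2 over Scap), -0.037 to 0.081 (Mbtps1 over Mbtps2), 0.13 to 0.93 (Idi1 over Hmgcs1) and -0.51 to -0.03 (Sqle over Fdft1). With the replicate number as a block, 6 members rose and 12 fell. Pmvk (limma adjusted p = 0.0124), Sqle (0.0134) and Cyp51 (0.0206) then passed the threshold. Over pairs of equal number the deviations correlated at 0.35, 0.22, 0.07 and 0.28, all positive. Pairs of different number gave -0.43 to 0.29, and not every sample correlated best with its own number. Whether the numbers pair the samples was therefore not settled. Under such a pairing, an exact permutation test by sign flips of 4 pairs cannot go below p = 0.125. Alcohol replicates 2 and 4 were the most alike of all pairs (Spearman 0.995); averaged as 1 sample, 5 members rose and 9 fell. Mvd drew 67 to 191 reads, and 67 was the lowest count of a member in a library. What limits its precision was not tested.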
